A study of Mus musculus with 18 samples.

Results

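The genes described here are 10 genes of the actin cytoskeleton, Actb, Actg1, Tpm1, Tpm2, Tpm4, Myl6, Myh9, Tagln2, Cfl1 and Pfn1. They were taken by gene name from a table that lists 1825851 genomic positions under 19736 gene names, and they held 6296 of those positions. The table came from RibOxi-seq, in which fragmented poly(A) RNA is oxidized so that a fragment can be ligated at its 3′ end only where that end is protected, as it is by 2′-O-methylation of the ribose, and in which the 3′ end of each sequenced fragment is counted at its base. Samples were 4T1 mouse breast cancer cells that carried lentiviral mCherry and Renilla luciferase in all groups, either wild type (4T1 WT) or with the box C/D snoRNA Snord67 knocked out by CRISPR/Cas9 with paired nickase guides. The 2 knockout lines, Snord67KO-1 and Snord67KO-2, were each grown from a single cell, so that a difference between a clone and 4T1 WT cannot be told apart from a difference between clones of these cells. Oxidized libraries from 3 biologic replicates of each genotype (9 of the 18 samples) have columns in the table, and the 9 libraries labelled control were not analysed here. The design asks whether loss of Snord67 changes where and how often protected ends are found in messenger RNA.

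Actin monomers, encoded in non-muscle cells mainly by Actb (β-actin) and Actg1 (γ-actin), polymerize into filaments that give cells their shape and drive migration. Tropomyosins (Tpm1, Tpm2 and Tpm4) lie along the filament and control access of other proteins to it, and non-muscle myosin II, with Myh9 as a heavy chain and Myl6 as an essential light chain, pulls on it. Cofilin (Cfl1) severs filaments, profilin (Pfn1) delivers monomers to growing ends, and transgelin 2 (Tagln2) is a calponin family protein that binds and stabilizes filaments.

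Total counts ranged from 625093 to 737219 in 4T1 WT, from 491836 to 686776 for Snord67KO-1 and from 212463 to 423278 for Snord67KO-2. The 10 genes together held 8632 counts, or 0.133% to 0.23% of a library. Snord67 itself had 0 counts in every genotype, so the table does not check the knockout. All 7 epithelial markers examined had counts, with Krt18 at 1688 and Krt8 at 843, whereas the smooth and striated muscle markers Des and Cnn1 had 2 and 8 counts over all libraries. The epithelial sum was not even across genotypes, at 376 to 786 counts per 1000000 counts of a library (CPM) in 4T1 WT, 867 to 950 for Snord67KO-1 and 668 to 768 for Snord67KO-2. Krt8 and Krt18 had 531 and 992 counts in Snord67KO-1 against 142 and 381 in 4T1 WT, whereas Cldn4 had 3 against 275, and Cdh1, Epcam and Cldn7 also had fewer in Snord67KO-1. Summed muscle markers ranged from 41.6 to 202 CPM in 4T1 WT, from 43.7 to 75.2 for Snord67KO-1 and from 9.41 to 61.4 for Snord67KO-2. All 6 had a count, and Acta2 and Acta1 (225 and 101 counts) led them. Fibroblast markers (5 of 6 with a count, Lum at 0) summed to 1.57 to 8.14 CPM in 4T1 WT, 11.6 to 26.7 for Snord67KO-1 and 0 to 2.71 for Snord67KO-2. The 3 endothelial markers summed to 4.7 to 5.43 CPM, 8.74 to 31.2 and 0 to 5.42 in the same order, and the 4 leukocyte markers did not exceed 17.8 CPM. Epithelial, fibroblast and endothelial sums thus lay above 4T1 WT in every Snord67KO-1 library, and the part of these shifts in the results below was not tested. A column of the table marks some positions as mispriming, and the share of counts at marked positions ranged from 1.38% to 17.8% of a library. 4T1 WT replicate 2 stood apart with the highest of these shares. Each call of a member or in a single clone that was lost without it is named below.

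The actins led the group by a wide margin. After scaling with TMM factors, which align libraries on the bulk of genes, Actb had 569 ± 25.3 CPM in 4T1 WT (SD, n = 3), 532 ± 32.6 for Snord67KO-1 and 505 ± 56.4 for Snord67KO-2. Actg1 had 427 ± 80 CPM in 4T1 WT, 343 ± 50.1 for Snord67KO-1 and 427 ± 28.1 for Snord67KO-2. Per kilobase of transcript, and without marked positions, the level in 4T1 WT was 237 ± 1.69 CPM for Actb and 220 ± 48.2 for Actg1, which do not differ beyond their spread. Myl6 (106 ± 26.1) and Tpm1 (100 ± 8.22) followed, then Pfn1 (79.4 ± 19.9), Tpm4 (78.6 ± 2.73) and Cfl1 (72.7 ± 15.8), and last Tagln2 (24 ± 9.91) and Myh9 (18.4 ± 2.52), the longest transcript of the group at 7433 bases. Within each of these sets the levels in 4T1 WT differed by less than the larger SD. Tpm2 had at most 2 counts in any library, below the limit of 3 counts that a count of 0 allows, and was the only member that did not pass the filter on low counts.

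**Figure D1:**
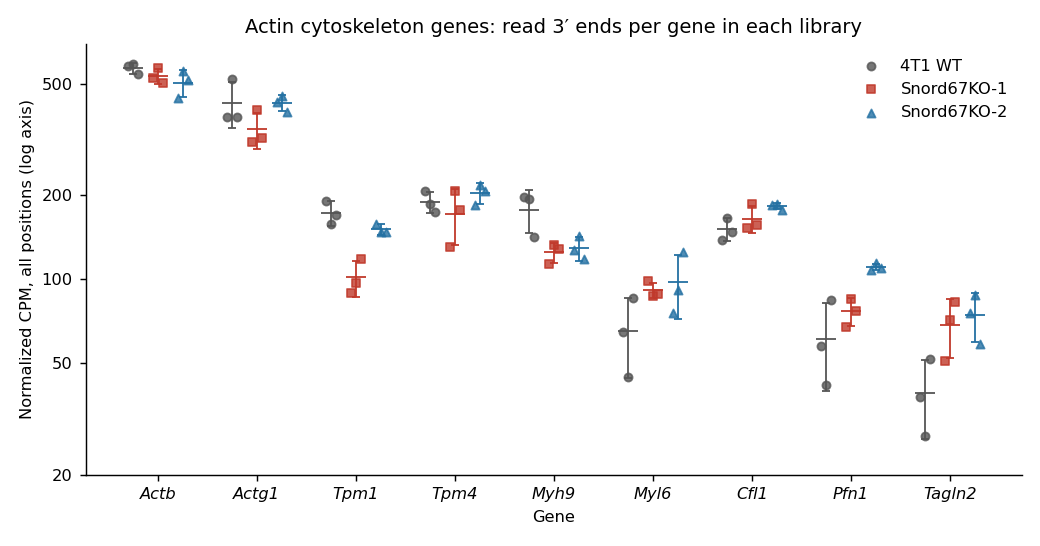
Normalized CPM of read 3′ ends (log axis) for the 9 genes tested, with a point for each library, a bar for the mean and whiskers for the SD of the 3 libraries of a genotype. Actb and Actg1 lie above the other genes in every library, the 3 Snord67KO-1 libraries of Tpm1 (89.2 to 118) lie below all others of that gene, and the lowest Tagln2 value is that of 4T1 WT replicate 2 (27.5).

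The ends were spread very differently over these genes. Tpm1, a tropomyosin gene on the minus strand of chromosome 9 (mm10, chr9:67022590-67049406), had its 674 counts on 515 positions, and its highest position held 6. Actb (chr5:142903115-142906754, minus strand) had 2637 counts on 920 positions, and a single base in coding exon 5 of 6 held 546 of them, or 20.7% of the gene. That base carries the mispriming mark. Its counts were 112, 167 and 47 in the 4T1 WT libraries, 73, 76 and 14 for Snord67KO-1 and 4, 22 and 31 for Snord67KO-2. In Cfl1 (chr19:5490455-5495201, plus strand) an unmarked base of the 3′ UTR held 149 of 780 counts, 76 of them in 4T1 WT replicate 2. In Actg1 (chr11:120345690-120348542, minus strand) an unmarked base in coding exon 5 of 6 held 191 of 1898 counts, 97 of them in 4T1 WT replicate 2.

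**Figure D2:**
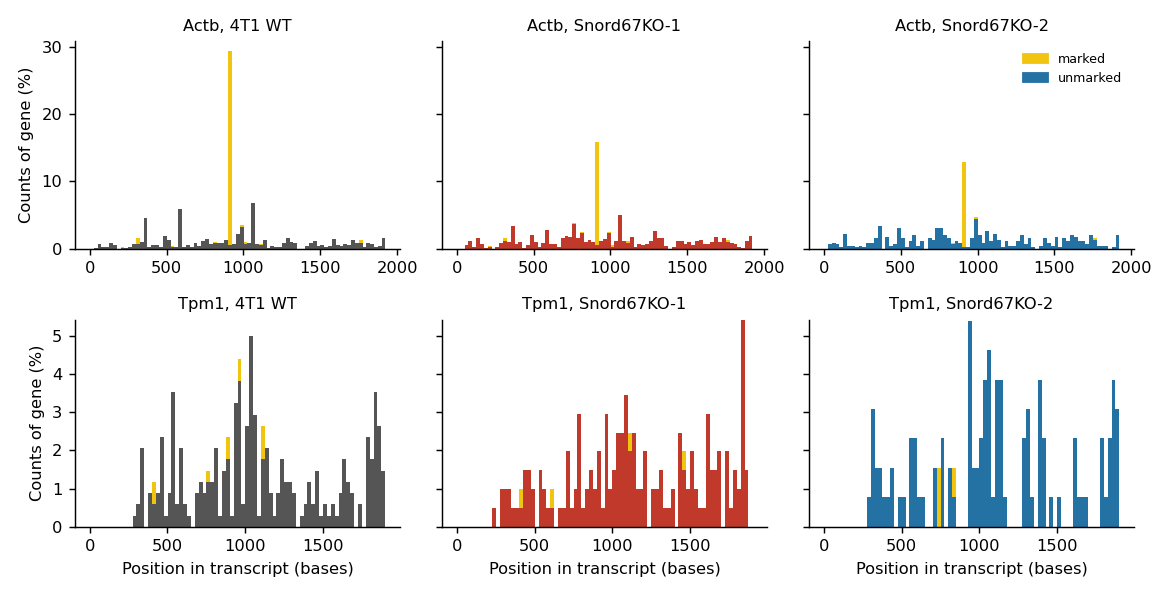
Share of each gene's counts (%) along its transcript in bins of 25 bases for Actb and Tpm1, by genotype with 3 libraries pooled; yellow marks counts at marked positions and the genotype's own colour the unmarked ones. A single marked bin stands out in Actb in all 3 genotypes, and Tpm1 has no bin of that size.

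The bases that follow these ends are shown because the marked ones resemble each other. Sequences were read from GENCODE M21 transcripts (GRCm38, the assembly also called mm10) and are written 5′ to 3′ on the strand of the gene. The first letters run up to and include the base that was counted, and the 6 capitals are the bases that follow it in the transcript.
Actb, marked, coding exon 5, chr5:142904227-142904248, 546 counts: gtatggaatcCTGTGGcatcca
Tpm4, marked, 3′ UTR, chr8:72152816-72152840, 112 counts: gatgtggagtgctCTGTAGgctgca
Actg1, marked, 3′ UTR, chr11:120346051-120346075, 88 counts: gcctggtggatctCTGTGAgcacca
Myh9, marked, coding exon 34, chr15:77766771-77766795, 71 counts: ggatctgaaggacCTGGAGgcacac
Across the marked positions of all genes the most frequent bases after the end were C, T, G, T, A and G in this order, with the first C at 98.5% and the first G at 87.8% of 14572 plus strand positions. The same letters led at 14658 minus strand positions. The study's 3′ linker begins with the same 6 letters, CTGTAG, per its list of oligonucleotides. At least 4 of the 6 matched at 96 of 97 marked positions of the actin cytoskeleton genes and at 166 of 3960 unmarked ones (4.19%), against 97.4% of marked and 4.58% of unmarked positions in all genes.

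Several of the highest unmarked positions of the group, though not all of them, were followed by GCACC, the letters that come directly after CTGTAG in the same linker. With these letters in capitals, the 3 with the most counts among those that it follows are given next. The counted base is again the last before the stretch of 12 bases that ends each sequence.
Actg1, unmarked, coding exon 5, chr11:120346654-120346678, 191 counts: aaggagatcacagccctaGCACCta
Cfl1, unmarked, 3′ UTR, chr19:5493737-5493761, 149 counts: gaccaagtcccgtcctagGCACCca
Actb, unmarked, coding exon 5, chr5:142904076-142904100, 86 counts: tactgctctggctcctaGCACCatg
This stretch, searched only on the transcript strand within 12 bases after the end, followed 8 of the 16 unmarked positions with at least 15 counts in these genes (50%) and 66 of 3944 with fewer (1.67%). At 6 of the 16 (37.5%) at least 4 of the 6 first linker letters matched, and 13 of the 16 (81.2%) met either criterion, beside 23% and 30.8% of the 2720 such positions of all genes. Over all genes it followed 12.6% of 2720 unmarked positions with at least 15 counts and 1.14% of all 781898 unmarked positions. Some of the 8 are neighbouring bases before the same GCACC and so are not separate sites. These are chr11:120346664, 120346665 and 120346666 in Actg1, and chr5:142904087 and 142904088 in Actb. The letters and the limit of 15 counts were chosen after the values had been seen, so the shares are descriptions. The 16 positions held 361 of 1467 counts of the group in 4T1 WT replicate 2 (24.6%) and between 2.04% and 11.7% in the other 8 libraries.

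Marked positions held 1195 of the 8632 counts of the 10 genes. In the 3 4T1 WT libraries 18.8%, 28% and 9.35% of the counts of the group were marked, in Snord67KO-1 11.8%, 17.7% and 3.32%, and in Snord67KO-2 2.84%, 6.2% and 8.18%. Every Snord67KO-2 library lay below every 4T1 WT library, and Snord67KO-1 overlapped both. The difference was not tested, and the share of marked counts over the whole library also varied between them. In each of the 9 libraries the share was above that of the remaining genes of the same library, which was 5.05%, 17.8% and 2.56% in 4T1 WT, 4.94%, 7.2% and 1.43% for Snord67KO-1 and 1.38%, 2.05% and 3.45% for Snord67KO-2. The remaining counts include Rn45s, which made up 19.3% to 32.4% of a library. Annotated exons held only 26% to 42.5% of a library, and a share over exon positions of other genes was not examined. Most marked counts of the group lay in Actb, Actg1, Myh9 and Tpm4. Actb had 601, Actg1 187, Myh9 173 and Tpm4 149, and a single Actb base held 546 of the 1195. In Myh9 40 of 140, 69 of 147 and 14 of 71 counts were marked in 4T1 WT, and 46.9% in replicate 2 has a Wilson 95% interval of 39.1% to 55%. Pfn1 had 3 marked counts of 363 in all. Such intervals cover counting error only. Fragments were amplified by PCR, and the study's RT primer and 5′ linker hold random bases. Whether these were used to remove duplicates is not given in the sources used here.

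**Figure D3:**
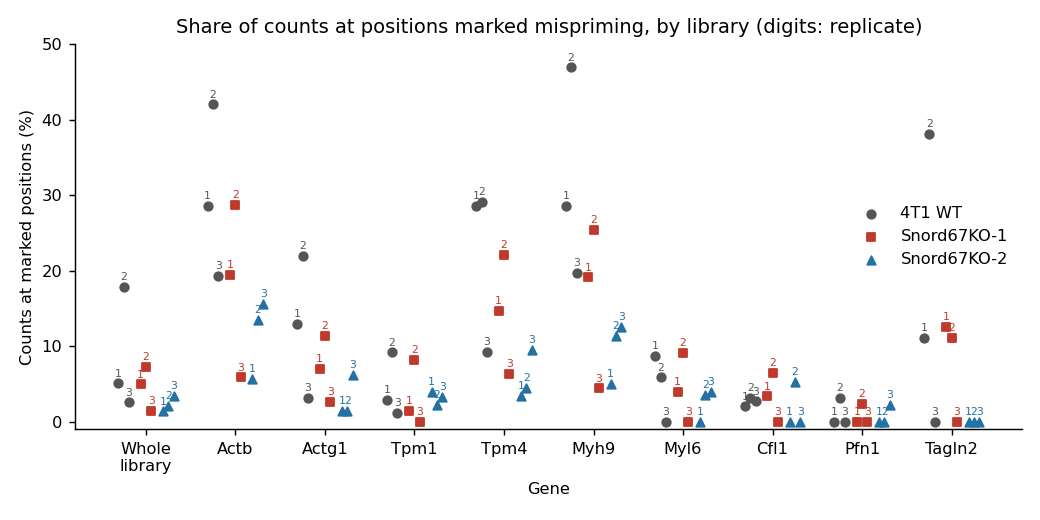
Percent of counts at positions marked mispriming for each whole library and for the 9 genes tested, with a point for each library labelled by its replicate number. 4T1 WT replicate 2 reaches 42% in Actb and 46.9% in Myh9, and Snord67KO-1 replicate 3 has 5.87% in Actb.

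Gene totals were compared between genotypes with edgeR's quasi-likelihood test over all 6530 genes that passed the filter, with Benjamini-Hochberg adjustment and a threshold of 0.05. Over all genes 1223 differed in Snord67KO-1 against 4T1 WT (18.7%), of which 695 were higher (10.6%) and 528 lower (8.09%). In Snord67KO-2 197 differed (3.02%), 146 higher (2.24%) and 51 lower (0.781%). For the average of both clones 766 differed (11.7%), 393 higher (6.02%) and 373 lower (5.71%). Scaling by library totals alone changed the split to 609 higher of 754 for Snord67KO-1, 33 of 35 for Snord67KO-2 and 192 of 332 for the average. Of the 9 members tested, 2 differed in Snord67KO-1, 0 in Snord67KO-2 and 1 for the average. Between the clones 0 of the 9 differed, beside 257 of all genes (3.94%). DESeq2 also called 0 of the 9 in Snord67KO-2 and between the clones. At an unadjusted p under 0.05 edgeR gave 3 of the 9 in Snord67KO-2 (Tagln2, Pfn1 and Myl6) and 1 between the clones (Tpm1), beside 1219 and 1194 of all 6530 genes. The median log2 fold change of the 9 members was -0.10 in Snord67KO-1, 0.11 in Snord67KO-2 and -0.02 for the average, beside -0.03, -0.03 and -0.04 over all genes tested. Without marked positions 5500 genes were tested and 21.5%, 4.11% and 12.6% differed, against 2, 0 and 2 of the 9 members, and between the clones 6.93% differed and 0 of the 9. The 3 comparisons share the 4T1 WT libraries. In these counts fewer RNA molecules and a smaller protected share of them cannot be told apart, nor, in bulk samples, can fewer cells of a type and less RNA per cell. The control libraries were not analysed, so ends counted without protection are not separated from protected ones. Of the 4334 member positions with a count, 2962 held exactly 1.

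Tpm1, which encodes tropomyosin 1, fell in Snord67KO-1. Its normalized CPM over all positions were 191, 157 and 170 in 4T1 WT, 89.2, 97.2 and 118 for Snord67KO-1 and 158, 147 and 147 for Snord67KO-2. Every Snord67KO-1 library lay below every 4T1 WT library, and the Snord67KO-2 libraries overlapped the lowest of 4T1 WT. The log2 fold change was -0.77 ± 0.20 in Snord67KO-1 (SE; edgeR adjusted p = 0.0157) and -0.20 ± 0.21 in Snord67KO-2 (edgeR adjusted p = 0.66). Without marked positions it was -0.89 ± 0.18 in Snord67KO-1 (edgeR adjusted p = 0.00132), -0.37 ± 0.18 in Snord67KO-2 (edgeR adjusted p = 0.287) and -0.63 ± 0.15 for the average of both clones (edgeR adjusted p = 0.00903). The difference between the clones did not pass, at 0.56 ± 0.22 on the log2 scale for Snord67KO-2 against Snord67KO-1 (edgeR adjusted p = 0.162), so a difference in Tpm1 between them is not shown. Leaving out 4T1 WT replicate 2 gave -0.88 in Snord67KO-1 (edgeR adjusted p = 0.00413). Over all positions the call was lost without 4T1 WT replicate 1 (-0.71, edgeR adjusted p = 0.0548), Snord67KO-1 replicate 1 (-0.68, edgeR adjusted p = 0.0901) or Snord67KO-1 replicate 2 (-0.75, edgeR adjusted p = 0.0501), and with library totals (-0.64, edgeR adjusted p = 0.0859) or library totals without Rn45s (-0.62, edgeR adjusted p = 0.0577). Without marked positions the Snord67KO-1 call held in each of the 16 alternatives tried, with log2 fold changes between -0.98 and -0.68. The call for the average held in 13 of them. Without marked positions the Snord67KO-2 libraries (151, 143 and 148 CPM) also lay below those of 4T1 WT (206, 190 and 175).

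The other tropomyosins did not pass the test. Tpm4 (chr8:72134975-72153142, plus strand) had 189 ± 16.6 CPM in 4T1 WT, 171 ± 38.5 for Snord67KO-1 and 203 ± 17.6 for Snord67KO-2. Tpm1 made up 46% to 49.4% of the summed Tpm1 and Tpm4 counts in the 4T1 WT libraries, 32% to 40.7% for Snord67KO-1 and 40.2% to 46.3% for Snord67KO-2. Without marked positions this share was 53.1% ± 2.25 in 4T1 WT, 40.5% ± 4.36 for Snord67KO-1 and 43.4% ± 2.71 for Snord67KO-2, and neither clone overlapped 4T1 WT; it was not tested. The 6 counts of Tpm2 fell as 3 in 4T1 WT, 1 for Snord67KO-1 and 2 for Snord67KO-2, too few to compare.

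Tagln2 (chr1:172500047-172507380, plus strand) rose for the average of both clones and in Snord67KO-1. Its normalized CPM were 38, 27.5 and 52 in 4T1 WT, 51, 71.4 and 83 for Snord67KO-1 and 76, 88 and 58.8 for Snord67KO-2. The highest 4T1 WT library lay just above the lowest Snord67KO-1 library and below all 3 of Snord67KO-2. The log2 fold change was 0.88 ± 0.26 for the average (edgeR adjusted p = 0.0362), 0.83 ± 0.28 in Snord67KO-1 (edgeR adjusted p = 0.0491) and 0.93 ± 0.31 in Snord67KO-2, which did not pass (edgeR adjusted p = 0.11). These totals rest on 74, 135 and 63 counts. Without 4T1 WT replicate 2 the average was 0.64 (edgeR adjusted p = 0.15), and leaving out any of 4T1 WT replicate 1, Snord67KO-1 replicates 2 and 3, and Snord67KO-2 replicates 1 and 2 also ended the call (0.77 to 0.86, edgeR adjusted p = 0.052 to 0.11). When 1 library was left out, the Snord67KO-1 call was kept only without 4T1 WT replicate 3 or Snord67KO-1 replicate 1.

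The remaining 6 genes did not pass the test in any comparison. Actb had log2 fold changes of -0.10 ± 0.19 in Snord67KO-1 and -0.17 ± 0.19 in Snord67KO-2 over all positions, and -0.00 ± 0.15 and -0.01 ± 0.16 without marked positions. Without marked positions Actb had 458, 452 and 453 CPM in the 4T1 WT libraries. Scaling by library totals turned the sign of the Actb value in Snord67KO-1 to 0.02 over all positions and 0.20 without marked ones. Actg1 had -0.32 ± 0.20 in Snord67KO-1 and -0.00 ± 0.21 in Snord67KO-2, and its 4T1 WT values of 381, 519 and 380 CPM include the highest value in replicate 2.

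The 2 chains of non-muscle myosin II had values of opposite sign. Myh9 (chr15:77760587-77842175, minus strand) had 197, 193 and 142 CPM in 4T1 WT, 113, 133 and 128 for Snord67KO-1 and 127, 143 and 118 for Snord67KO-2. Snord67KO-1 lay below 4T1 WT without overlap, with a log2 fold change of -0.51 ± 0.21 (edgeR adjusted p = 0.095), and the value was -0.33 ± 0.18 without marked positions (edgeR adjusted p = 0.212). Myl6 (chr10:128490860-128494145, minus strand) had 64.7, 44.6 and 86 CPM in 4T1 WT, 98.2, 87.3 and 88.6 for Snord67KO-1 and 76, 91.3 and 125 for Snord67KO-2. Its log2 fold change was 0.51 ± 0.26 in Snord67KO-1 (edgeR adjusted p = 0.182) and 0.65 ± 0.27 in Snord67KO-2 (edgeR adjusted p = 0.214).

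Of the 2 genes of filament turnover, Pfn1 (chr11:70651850-70654644, minus strand) had 57.6, 42 and 84 CPM in 4T1 WT, 67.6, 85.3 and 77.3 for Snord67KO-1 and 108, 114 and 110 for Snord67KO-2. All Snord67KO-2 libraries lay above all others, with a log2 fold change of 0.88 ± 0.26 that did not pass (edgeR adjusted p = 0.0828) and that passed without 4T1 WT replicate 3 (1.15, edgeR adjusted p = 0.0234). Cfl1 had 0.12 ± 0.19 in Snord67KO-1 and 0.27 ± 0.20 in Snord67KO-2. Its 214 CPM in 4T1 WT replicate 2 without marked positions, against 150 in each of the other two, goes with the 76 counts at the 3′ UTR base shown above. When each position was counted once per library, whatever its count, Cfl1 (0.60, edgeR adjusted p = 0.0233), Pfn1 (0.73, edgeR adjusted p = 0.0248) and Tagln2 (0.83, edgeR adjusted p = 0.0403) passed the test in Snord67KO-2. With that alternative 437 of all 5196 genes tested differed in Snord67KO-2, 329 of them higher. It was chosen after the data had been seen. Distinct positions also depend on depth and on bases with many counts. Cfl1 had 127 counts on 50 positions in 4T1 WT replicate 2 and 72 counts on 68 in Snord67KO-2 replicate 3. The part of this in the 3 values was not tested.

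**Figure D4:**
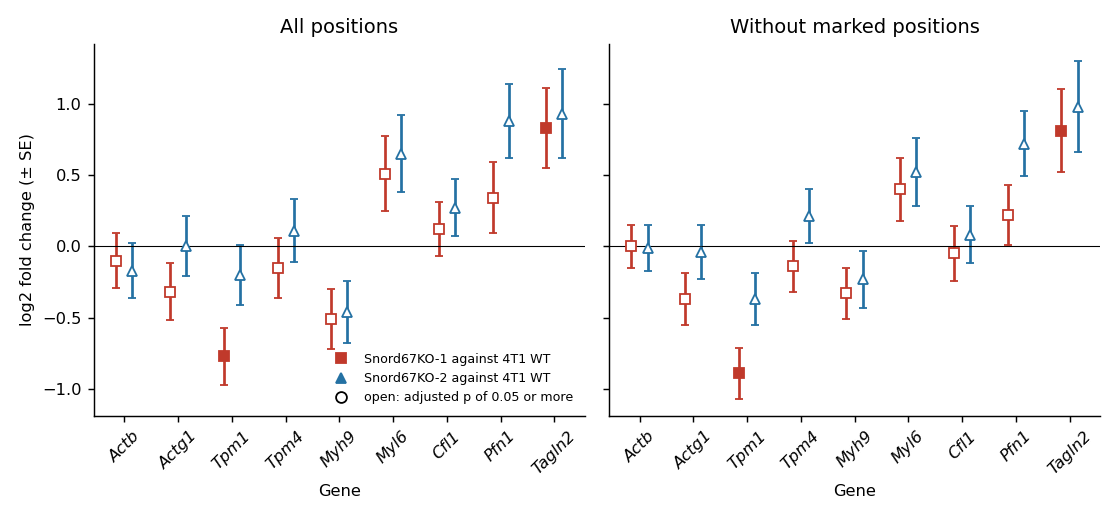
log2 fold change of gene totals (± SE) in each clone against 4T1 WT for the 9 genes tested, over all positions and without marked positions; filled symbols have an edgeR adjusted p under 0.05. Tpm1 and Tagln2 in Snord67KO-1 are filled in both panels, and the Snord67KO-2 symbols are open throughout.

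Single positions were tested where 3 or more libraries had 10 or more counts each, which left 2092 in the whole table. Only 8 of them lie in these genes: 4 in Actb, 2 in Actg1 and 1 each in Cfl1 and Tpm4. None of the 8 differed in any comparison with edgeR (adjusted p from 0.381 to 0.999), where 1 of all 2092 did in each comparison with 4T1 WT (0.0478%) and 0 between the clones (0%), and DESeq2 called 0 of the 8 either. At an unadjusted p under 0.05 edgeR gave 1 of the 8 for the average and 1 in Snord67KO-2, beside 214 and 259 of all 2092. Taken relative to the rest of the same gene, 0 of 2051 positions differed with edgeR (0%), although 357 had an unadjusted p under 0.05 when the clones were averaged. Most of the 8 reached the limit of 10 counts only in 4T1 WT and Snord67KO-1 libraries. The Cfl1 base, for example, had 1, 3 and 3 counts for Snord67KO-2. Low values for Snord67KO-2 were thus partly set by the filter, and no conclusion is drawn from the shared direction. The values of all 8 were below 0 in every comparison. The farthest was the Cfl1 3′ UTR base, at -2.71 ± 0.86 on the log2 scale for the average of both clones (edgeR adjusted p = 0.265), followed in size by the marked Actg1 3′ UTR base at -2.09 ± 1.04 (edgeR adjusted p = 0.312). For the average, 3 of the 8 shares of the gene had an unadjusted p under 0.05, namely this Cfl1 base, the unmarked Actg1 base in exon 5 and the marked Tpm4 base. Counts at these bases were highest in 4T1 WT replicate 2 or 1, which had 17.8% and 5.08% of their whole library at marked positions. The part of that share in the values was not tested.

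The split of ends between coding sequence and 3′ UTR was set beside the length of each. Of unmarked counts on the transcript, 62.8% of Tpm4 and 15.8% of Myh9 lay in the 3′ UTR, which makes up 62.1% and 17.7% of these transcripts. The Cfl1 3′ UTR, with 72.7% of the length of the annotated transcript, held 51.9% of its counts. In Actg1 the 3′ UTR held 35.5% of unmarked counts in 4T1 WT, 48.1% for Snord67KO-1 and 52.2% for Snord67KO-2, and in 4T1 WT the unmarked base in exon 5 alone held 139 of 729 counts. In Tpm1 8% of unmarked counts in 4T1 WT and 8.08% in Snord67KO-1 lay in introns or beyond the annotated exons.

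Several of these genes have close copies elsewhere in the genome, and how the authors assigned reads that fit more than 1 place is not given in the sources used here. The last 25 transcript bases before the end also occur in transcripts of other genes for 59% of Actb, 55.2% of Actg1, 81.1% of Myl6, 37.6% of Cfl1 and 22.1% of Tpm4 counts, but only for 0.71% of Tpm1, 0.763% of Tagln2 and 3.18% of Pfn1 counts. For Actb and Actg1 the other actin accounted for 98 and 74 of these counts, and the remainder matched other transcripts, led by Lrrc58 for Actb and Gm12715 for Actg1. Actg1, Tpm4, Myh9 and Cfl1 each overlap other annotated genes on the genome, Cfl1 with Snx32 on the opposite strand. Fragment length and so the true extent of sharing is not in the table.

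Other genes of the actin cytoskeleton were taken from a list of 76, of which 63 were tested. In Snord67KO-1 9 were higher and 9 lower, in Snord67KO-2 4 were higher and 0 lower, and for the average 7 were higher and 5 lower. That is 28.6% of the list in Snord67KO-1, 6.35% in Snord67KO-2 and 19% for the average, beside 18.7%, 3.02% and 11.7% of all genes. The median log2 fold change of the 63 was -0.11, 0.08 and -0.09. Of 12 tested genes that bind monomers or sever and cap filaments, 3 were higher and 1 lower in Snord67KO-1 and 3 were higher and 0 lower in Snord67KO-2. Of 13 tested genes of filament nucleation and branching, 3 were higher and 2 lower in Snord67KO-1 and 1 was higher in Snord67KO-2. Of 17 tested crosslinkers, bundlers and anchors, 2 were higher and 4 lower in Snord67KO-1, and 0 differed in Snord67KO-2 with edgeR (3 at an unadjusted p under 0.05, 0 with DESeq2). Over all positions, among 4 tested tropomyosin, calponin and transgelin relatives only Cald1 fell, in Snord67KO-1, and among 10 myosins, light chains and kinases only Myo1e rose, also there (0.96 ± 0.29, edgeR adjusted p = 0.0285), which DESeq2 did not call. Among 2 tested actin isoforms Acta2 fell in Snord67KO-1 and for the average. DESeq2 called 1 of the 2 isoforms for the average and in Snord67KO-2, and 0 in Snord67KO-1. Without marked positions edgeR called 1 of the 2 lower in each clone and for the average. Of 5 tested GTPases and SRF factors Cdc42 rose for the average (0.61 ± 0.19, edgeR adjusted p = 0.0429), which DESeq2 did not call.

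Tmsb4x, which encodes the monomer-sequestering thymosin β4, was the gene of the list with the lowest p for the average. Its normalized CPM were 43.6, 38 and 38 in 4T1 WT, 84.1, 97.2 and 132 for Snord67KO-1 and 127, 134 and 123 for Snord67KO-2. All 6 knockout libraries lay above all 3 of 4T1 WT, with log2 fold changes of 1.38 ± 0.24 (edgeR adjusted p = 0.00103) and 1.67 ± 0.25 (edgeR adjusted p = 0.00181), and both calls held in each of the 17 alternatives tried. Its relative Tmsb10 rose in Snord67KO-2 (1.25 ± 0.25, edgeR adjusted p = 0.012) and had 0.17 ± 0.24 in Snord67KO-1. Arpc1b, a subunit of the Arp2/3 complex that branches filaments, rose in both clones, by 0.93 ± 0.23 on the log2 scale (edgeR adjusted p = 0.0106) and 1.16 ± 0.24 (edgeR adjusted p = 0.0152). Capg, which caps filament ends, rose in both as well, by 1.18 ± 0.30 (edgeR adjusted p = 0.013) and 1.41 ± 0.33 (edgeR adjusted p = 0.028). The Snord67KO-2 calls were lost for Arpc1b without Snord67KO-2 replicate 1 or 2 (1.16 and 0.94), for Tmsb10 without Snord67KO-2 replicate 2 or 3 (1.17 and 1.28), and for Capg without 4T1 WT replicate 1 or 2 or Snord67KO-2 replicate 2 or 3 (1.19 to 1.41). The Snord67KO-1 call of Capg was lost without Snord67KO-1 replicate 1 (1.13). Under library totals alone the Snord67KO-2 calls of Arpc1b (0.94), Tmsb10 (1.07) and Capg (1.23) were lost. That of Capg was kept in 11 of the 17 alternatives tried.

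Proteins that link actin to membranes and to each other moved in both directions. Ezr, which encodes ezrin, a linker of actin to the plasma membrane, rose in Snord67KO-1 (1.54 ± 0.32, edgeR adjusted p = 0.00401) and had 1.10 ± 0.36 in Snord67KO-2 (edgeR adjusted p = 0.111). Its relative moesin, Msn, fell in Snord67KO-1 (-1.14 ± 0.20, edgeR adjusted p = 0.00132). Msn had 323, 381 and 366 CPM in 4T1 WT, 147, 163 and 177 for Snord67KO-1 and 583, 440 and 444 for Snord67KO-2, and the 3 genotypes did not overlap. In Snord67KO-2 against 4T1 WT Msn had 0.44, which did not pass (edgeR adjusted p = 0.237) and passed in 1 of 17 alternatives. The bundling protein gene Pls3 rose in Snord67KO-1 (0.82 ± 0.22, edgeR adjusted p = 0.0167). Its relative Lcp1 fell there (-2.18 ± 0.41, edgeR adjusted p = 0.00183), from 45, 40.6 and 36 CPM in 4T1 WT to 16.6, 3.97 and 4.22. These rest on 13, 2 and 3 counts in Snord67KO-1, and although the call held under each alternative tried, its size did not, at -1.85 without Snord67KO-1 replicate 3, -3.23 without its replicate 1 and -7.27 with exon positions only, a fitted value at very low counts and no bound. Wasl, an activator of the Arp2/3 complex, fell in Snord67KO-1 (-1.24 ± 0.31, edgeR adjusted p = 0.012), as did Cald1, caldesmon (-0.74 ± 0.20, edgeR adjusted p = 0.0178). The call of Wasl was lost without Snord67KO-1 replicate 3 (-1.05), that of Pls3 without replicate 1 or 3 of this clone (0.86 and 0.68) and that of Cald1 without its replicate 1 or 2 (-0.64 and -0.71). With library totals, with or without Rn45s, the calls of Wasl (-1.12 and -1.10) and Cald1 (-0.60 and -0.58) were lost, as were that of Wasl with DESeq2 (-1.24) and that of Pls3 with no filter (0.72). Acta2, smooth muscle actin, fell for the average (-2.08, edgeR adjusted p = 0.0161), a call kept in 13 of 16 alternatives. It had -2.53 in Snord67KO-2, which did not pass (edgeR adjusted p = 0.0718), and fell in Snord67KO-1 (-1.64 ± 0.55, edgeR adjusted p = 0.0464). Acta2 had 149 CPM in 4T1 WT replicate 2 against 53.4 and 26 in the other two. Without that library it had -0.77 in Snord67KO-1 (edgeR adjusted p = 0.248). The Snord67KO-1 call was also lost without Snord67KO-1 replicate 1 or 3 or Snord67KO-2 replicate 1 or 2 (-1.67 to -1.31). It was lost as well with DESeq2, library totals with or without Rn45s, at least 20 counts, or exon positions only (-1.61 to -1.54). Of the calls in a single clone given here for the wider list, that of Capg in Snord67KO-2 was lost without 4T1 WT replicate 2 as well (1.19, edgeR adjusted p = 0.0555).

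**Figure D5:**
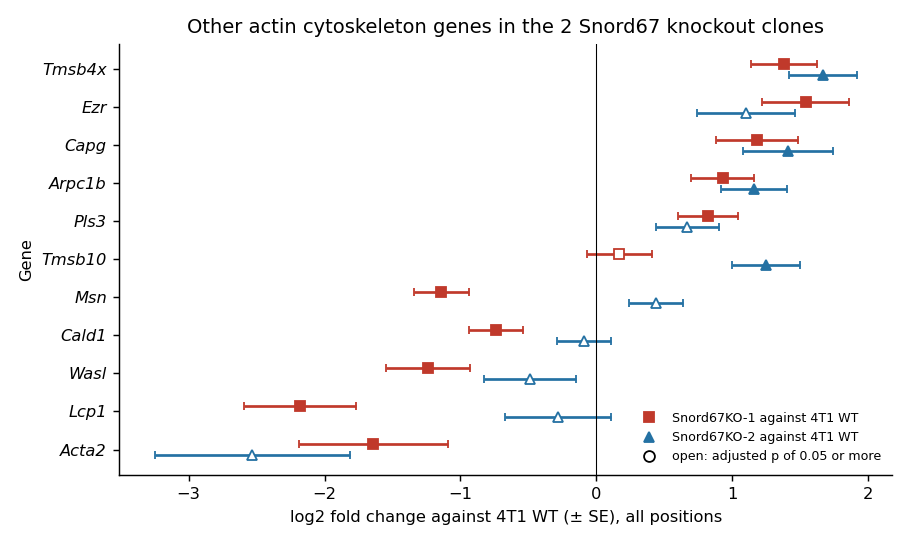
log2 fold change of gene totals (± SE, all positions) in each clone against 4T1 WT for other actin cytoskeleton genes chosen by the smallest p; filled symbols have an edgeR adjusted p under 0.05. Tmsb4x, Capg and Arpc1b are filled for both clones, and Msn is the gene whose 2 clones lie on opposite sides of 0.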

How the data were processed

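Poly(A) RNA of 4T1 cells was fragmented with Benzonase, taken through cycles of oxidation and elimination, ligated to a 3′ linker and amplified by PCR. The authors trimmed and merged reads (cutadapt, pear), mapped them (the submitters' processing notes list STAR and mm10) and deposited counts of read 3′ ends per base; the handling of multiply mapped and duplicate reads and the rule behind the mispriming mark are not given in the sources used here. The paper's methods name another mouse build, and the deposited coordinates were checked as 1-based mm10. Counts were summed per gene with and without marked positions. They were tested with edgeR 4.0.16 in R 4.3.3 (TMM, glmQLFit, glmQLFTest, filterByExpr with a minimum count of 10, genotype as the only term), with DESeq2 1.42.0 as an alternative. Single positions needed at least 10 counts in at least 3 libraries, and their relative fit had as offset the log of 1 plus what the gene held elsewhere, in genes with at least 50 such counts. An SE is the log2 fold change divided by the root of F. Tables and figures used Python 3.11.15. The fits were tested on simulated data. Depth limits low genes: 3 counts equal 4.07 to 14.1 CPM. Replicates are described as biologic, with no further detail on the cultures, so p-values measure the spread between these samples, which may be technical.

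The members, the gene lists and the tests were chosen with earlier results of these data known. Named were all members, the 12 genes of the fixed list with the smallest p among those past the threshold (1 of them is not reported here), and the highest marked and unmarked positions. Alternatives were DESeq2, library totals with and without Rn45s, other count filters, exon positions only, a replicate block and leaving out each replicate; distinct positions, and dropping positions that resemble marked ones, were added after seeing the data. Gene models were GENCODE M21.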

Additional observations from a re-analysis of the deposited data

Results flagged for a closer look

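For 3 of the 63 tested genes of the wider actin list (4.76%) the 2 knockout clones differed from each other by edgeR's test of Snord67KO-2 against Snord67KO-1, beside 257 of all 6530 genes (3.94%). Msn was higher in Snord67KO-2 by 1.58 ± 0.21 on the log2 scale (edgeR adjusted p = 0.000376), with 489 ± 81.4 CPM against 162 ± 15.3 in Snord67KO-1, and the call held in each of the 17 alternatives tried. Lcp1 was higher by 1.89 ± 0.47 (edgeR adjusted p = 0.0334), with 34.2 ± 3.35 against 8.25 ± 7.21 CPM, and its size moved from 1.56 with library totals, where the call was lost, to 2.96 without Snord67KO-1 replicate 1 and 7.01 with exon positions only. Tmsb10 was higher by 1.08 ± 0.24 (edgeR adjusted p = 0.022), with 220 ± 15.6 against 104 ± 15.6 CPM. The Lcp1 call was also lost with library totals without Rn45s (1.67) and without Snord67KO-1 replicate 2 or 3 or any Snord67KO-2 library. The Tmsb10 call was kept in 10 of the 17 alternatives (0.75 to 1.21 over all of them). Leaving out Snord67KO-1 replicate 1 or any Snord67KO-2 library ended it, as did other processing settings. Among the 6 knockout libraries none stood apart from the others in any of the 27 sets of member levels and marked shares examined, where chance flags about 1 set in 20.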

How the results depend on the processing

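Of the calls among the 9 members, that of Tpm1 in Snord67KO-1 without marked positions was kept under each of the 16 alternatives run for it, which did not include exon positions or distinct positions, whereas that of Tagln2 was lost under several; the causes were not tested. Over all positions the number of members called for the average of both clones (1) became 0 with DESeq2, with library totals and with no filter. It became 3 with distinct positions, beside 912 of all 5196 genes. In Snord67KO-1 (2) the number of members became 1 with DESeq2, library totals, library totals without Rn45s, and no filter. In Snord67KO-2 (0) it became 3 with distinct positions, beside 437 of all 5196 genes. Without marked positions the average (2) became 0 with DESeq2 and 1 with library totals, and Snord67KO-1 (2) became 1 with DESeq2 or no filter. Leaving out 1 library gave 0 to 4 members for the average, 0 to 3 in Snord67KO-1 and 0 to 1 in Snord67KO-2, and without marked positions 1 to 2, 1 to 2 and 0 to 2.

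Over all genes the average called 407 with DESeq2, 332 with library totals and 457 with library totals without Rn45s. Snord67KO-1 called 644 with DESeq2, 754 with library totals, 2056 with no filter, 699 with at least 20 counts and 730 with exon positions. Snord67KO-2 called 35 with library totals, 69 without Rn45s, 435 with no filter and 437 with distinct positions. Between the clones 111 were called with DESeq2, 462 with no filter, 149 with at least 20 counts, 81 with exon positions and 652 with distinct positions. Without marked positions DESeq2 called 313 for the average, 572 in Snord67KO-1, 107 in Snord67KO-2 and 130 between the clones. There no filter gave 1858 and at least 20 counts 692 in Snord67KO-1, library totals 115 in Snord67KO-2, and at least 20 counts 222 between the clones. Leaving out 1 library gave 455 to 813, 621 to 1362, 34 to 325 and 53 to 509 for the average, Snord67KO-1, Snord67KO-2 and between the clones, and 494 to 691, 724 to 1348, 73 to 272 and 112 to 616 without marked positions.

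Values that changed sign did not pass the test. With distinct positions the average was 0.24 for Actb, 0.19 for Actg1 and 0.13 for Tpm4, Snord67KO-1 was 0.17 for Actb and -0.02 for Tmsb10, and Snord67KO-2 was 0.31 for Actb and 0.39 for Actg1. Tpm4 for the average was 0.01 without Rn45s, with at least 20 counts and with exon positions, and -0.10 in Snord67KO-2 with library totals. Actb in Snord67KO-1 was 0.02 with library totals, 0.04 without Rn45s and 0.02 with exon positions, and Actg1 in Snord67KO-2 was 0.01 with DESeq2, 0.03 with at least 20 counts and 0.01 with a replicate block. Without marked positions Actb in Snord67KO-1 was 0.01 with DESeq2, 0.20 with library totals, 0.21 without Rn45s and 0.03 with at least 20 counts. Tpm4 in Snord67KO-1 was 0.05 and 0.06, and Cfl1 there 0.13 and 0.14, with library totals and without Rn45s, and Cfl1 in Snord67KO-2 was -0.06 with library totals. Dropping positions that resemble marked ones gave 0.11 for Actb and 0.27 for Cfl1 in Snord67KO-1, and 0.15 for Actb and 0.33 for Actg1 in Snord67KO-2. With 1 library left out, over all positions, Tpm4 ranged from -0.10 to 0.07 for the average and from -0.31 to 0.02 in Snord67KO-1, Actg1 from -0.09 to 0.14 in Snord67KO-2 and Tmsb10 from -0.10 to 0.33 in Snord67KO-1. Without marked positions the ranges in Snord67KO-1 were -0.04 to 0.01 for Actb, -0.28 to 0.03 for Tpm4 and -0.19 to 0.12 for Cfl1, and in Snord67KO-2 -0.08 to 0.04 for Actb, -0.16 to 0.15 for Actg1 and -0.03 to 0.26 for Cfl1.

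Same-numbered libraries correlated between -0.153 and 0.351 in their deviations from the genotype means, and differently numbered ones between -0.394 and 0.199. The highest values, 0.351 and 0.292, were those of 4T1 WT with Snord67KO-1 for replicates 2 and 3. All other same-numbered pairs lay between -0.153 and 0.028. Whether a replicate number stands for a shared batch is not given by the labels and was not tested. With a replicate block 891, 1343, 282 and 279 genes were called in the 4 comparisons, and 719, 1221, 258 and 379 without marked positions, and the number of members called stayed at 1, 2, 0 and 0, and at 2, 2, 0 and 0. Depth limits genes such as Tagln2 (272 counts) and Tpm2 (6 counts).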

Other observations

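The base at which ends were counted also differed in frequency from the transcripts themselves. At the 3999 unmarked transcript positions of the 10 genes the counted base was A at 30% and G at 18.8%, while these transcripts hold 24.8% A and 27.4% G. Over 785340 unmarked positions of all genes the shares were 32.2% and 16.2%. The β-actin share of the summed Actb and Actg1 counts without marked positions was 51.8% ± 5.32 in 4T1 WT, 57.7% ± 3.88 for Snord67KO-1 and 51.8% ± 2.16 for Snord67KO-2 (SD, n = 3), within the spread of the libraries.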
